A study of Mus musculus with 8 samples.

Results

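The data describe 10 genes of bile acid synthesis in mouse liver: Cyp7a1, Cyp8b1, Cyp27a1, Cyp7b1, Cyp39a1, Akr1d1, Amacr, Slc27a5, Baat and Fgfr4. They were found by the RefSeq accessions of the array's probes, which matched the 10 symbols with 14 probes. All 10 were among the 26551 genes and unnamed transcripts tested, and all 14 probes were well above background on each of the 8 arrays. Of these genes, 4 had 2 probes (Akr1d1, Baat, Cyp7b1 and Fgfr4) and 6 had 1.

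RNA from whole livers of mice 10 to 11 weeks old was hybridised to 1-colour arrays, 1 array per sample, in 4 groups of 2: males and females, each wild type or labelled as lacking Bcl6 in the liver alone. Bcl6 is a transcriptional repressor, and the series asks how it bears on the differences between male and female liver. The labels give neither the strain nor the promoter behind the deletion, and do not say that each array is a separate animal, so p-values here speak only to the spread among these 8 samples. Levels are log2 signals relative to the 75th percentile of the same array. They compare groups for 1 probe and do not rank genes against each other.

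Bile acids are made from cholesterol in hepatocytes. In the classic route CYP7A1 adds a hydroxyl group to the sterol ring as the rate-limiting step, and CYP8B1 then decides how much cholic acid is formed. In the alternative route CYP27A1 oxidises the side chain first and CYP7B1 hydroxylates the ring of the resulting oxysterols, while CYP39A1 acts on 24-hydroxycholesterol. AKR1D1 reduces the steroid ring, AMACR turns the side chain into the form that peroxisomes can shorten, and SLC27A5 and BAAT attach coenzyme A and then an amino acid. FGFR4 is the hepatocyte receptor through which the intestinal hormone FGF15 lowers Cyp7a1.

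The RefSeq promoter table (build GRCm38.p6) held 4 of the 10 genes. The 250 bases before the start are shown 5′ to 3′ on the gene's strand for Cyp27a1 and Fgfr4, which both fell in the labelled-knockout males, and for Cyp8b1, the 1 of the 4 that held a searched motif. They lie at chr1:74713285-74713534 (plus strand), chr13:55152568-55152817 (plus strand) and chr9:121916306-121916555 (minus strand). Capitals mark a match to CAAGGNCA.
Cyp27a1: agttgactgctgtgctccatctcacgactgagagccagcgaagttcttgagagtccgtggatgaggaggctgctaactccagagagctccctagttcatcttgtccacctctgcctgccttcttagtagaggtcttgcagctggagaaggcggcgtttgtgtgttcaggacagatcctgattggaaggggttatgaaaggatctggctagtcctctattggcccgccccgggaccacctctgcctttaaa
Fgfr4: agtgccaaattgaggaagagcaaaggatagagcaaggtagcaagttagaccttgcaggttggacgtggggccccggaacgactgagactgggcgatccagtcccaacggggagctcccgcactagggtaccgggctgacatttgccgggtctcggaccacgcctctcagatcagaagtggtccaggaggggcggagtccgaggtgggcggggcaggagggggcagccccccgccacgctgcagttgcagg
Cyp8b1: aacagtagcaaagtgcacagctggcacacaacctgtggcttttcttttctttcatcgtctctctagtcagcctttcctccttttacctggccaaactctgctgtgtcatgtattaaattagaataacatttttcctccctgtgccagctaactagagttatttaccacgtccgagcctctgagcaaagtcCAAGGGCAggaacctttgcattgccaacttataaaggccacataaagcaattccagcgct
The letters TTCNNNGAA, the core bound by STAT proteins and by BCL6, and CAAGGNCA, the site of the nuclear receptor NR5A2, were searched on both strands. TTCNNNGAA was in none of the 4 windows and in 7.02% of the 32851 promoters in the table. CAAGGNCA was in the Cyp8b1 window, 60 bases before the start, and in 5.53% of all promoters; it overlapped no other match. The match is a description of these letters and not a measured binding site.

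The 8 arrays lay on 1 slide with 1 scan time, the females in its row 1 and the males in its row 2. Slide row and sex therefore cannot be told apart; both genotypes lay in each row. Signals correlated at 0.987 to 0.993 between arrays of 1 group and at 0.960 to 0.991 between groups. The Y-linked genes Ddx3y and Kdm5d and the X-inactivation transcript Xist separated the sexes as labelled. Bcl6 was not lower in the livers labelled knockout (log2 difference 0.81 in males, adjusted p = 0.676; 1.11 in females, adjusted p = 0.556). Where its probe lies relative to the deleted part is not given, so it does not check the genotype labels, and every knockout direction here rests on those labels. Transcripts of hepatocytes, the cells that make bile acids, were high on every array: the summed level of 12 hepatocyte markers, in multiples of the 75th percentile, was 7589 to 8002 in males and 6863 to 7770 in females.

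The first question was what loss of Bcl6 does to these genes in males. In the male livers labelled knockout, 5 of the 10 genes fell and none rose at an adjusted p under 0.05 (limma with Benjamini-Hochberg adjustment over all 26551): Cyp7b1, Cyp39a1, Cyp27a1, Amacr and Fgfr4. Among all genes tested, 10.7% passed in this comparison, 4.93% falling and 5.77% rising. The median difference of the 10 was -0.62 on the log2 scale, beside -0.04 for all genes. In females, 2 of the 10 fell, Cyp39a1 and Cyp27a1, and 1 rose, Cyp7b1, where 5.93% of all genes passed, 2.45% falling and 3.48% rising. The median of the 10 was -0.25 in females, beside 0.00 for all genes. With single arrays left out, the number of the 10 past the threshold ranged from 1 to 6 in each sex. Values after ± are SEs of the limma fit, with 2 arrays a group. In whole liver, fewer hepatocytes and less RNA per hepatocyte cannot be told apart.

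**Figure D1:**
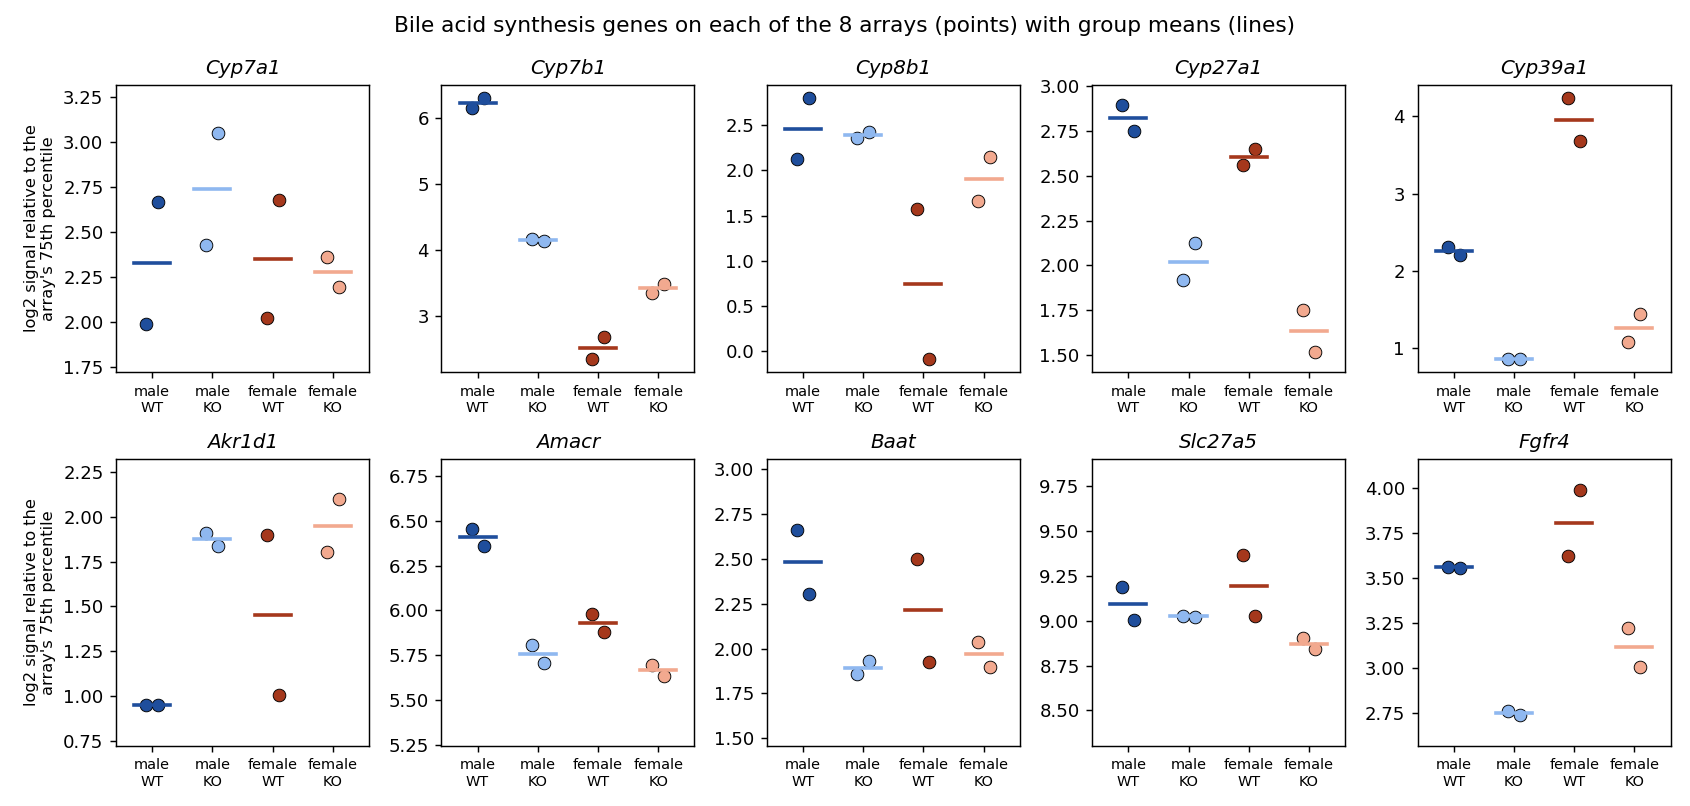
The log2 signal of each of the 10 genes relative to its array's 75th percentile is plotted for the 4 groups; points are the 2 arrays of a group and lines their mean, each panel has its own scale, WT is wild type and KO is labelled knockout. Cyp7b1 is near 6.2 in wild-type males and near 2.5 in wild-type females, and both labelled-knockout groups lie between them.

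Cyp7a1 (Entrez gene 13122, chromosome 4), the rate-limiting enzyme of the classic route, read 1.99 and 2.66 in wild-type males, 2.43 and 3.05 in labelled-knockout males, 2.02 and 2.68 in wild-type females, and 2.36 and 2.19 in labelled-knockout females. Each labelled-knockout group overlapped the wild type of its sex. The labelled-knockout difference was 0.41 ± 0.34 in males, with a 95% interval of -0.41 to 1.24 (adjusted p = 0.483). In females it was -0.07, with an interval of -0.90 to 0.75 (adjusted p = 0.917). Neither difference was larger than the spread between replicates.

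Cyp8b1 (gene 13124, chromosome 9), the sterol hydroxylase that leads to cholic acid, read 2.12 and 2.80 in wild-type males and 2.36 and 2.42 in labelled-knockout males. It read 1.57 and -0.09 in wild-type females and 1.66 and 2.15 in labelled-knockout females. Wild-type females had the lowest pair of arrays, and their second array was far below the first. The labelled-knockout difference was -0.07 in males (interval -1.39 to 1.25, adjusted p = 0.948) and 1.16 ± 0.54 in females (interval -0.15 to 2.48, adjusted p = 0.247). The female difference rested on the wild-type arrays: it was 1.99 without the first of them (adjusted p = 0.0442) and 0.33 without the second (adjusted p = 0.625).

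Cyp27a1 (gene 104086, chromosome 1), the mitochondrial sterol side-chain hydroxylase that opens the alternative route, was lower in the livers labelled knockout of both sexes. It read 2.89 and 2.75 in wild-type males against 1.92 and 2.12 in labelled-knockout males, and 2.56 and 2.65 in wild-type females against 1.75 and 1.52 in labelled-knockout females. Every wild-type array was above every array labelled knockout. The fall was 1.74-fold in males (log2 difference -0.80 ± 0.13, adjusted p = 0.0183) and 1.96-fold in females (-0.97 ± 0.13, adjusted p = 0.0156). The test of the difference between the sexes gave 0.17 ± 0.19 (adjusted p = 0.847). Leaving out any 1 male array lost the male call (adjusted p 0.0594 to 0.101), and leaving out the second array of either female group lost the female one (adjusted p 0.0663 and 0.051).

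Cyp7b1 (gene 13123, chromosome 3), the oxysterol hydroxylase of the alternative route, moved in opposite directions in the 2 sexes. It read 6.14 and 6.30 in wild-type males, 4.16 and 4.14 in labelled-knockout males, 2.36 and 2.68 in wild-type females, and 3.35 and 3.49 in labelled-knockout females. The 4 groups did not overlap, in the order wild-type male, labelled-knockout male, labelled-knockout female and wild-type female. It fell 4.19-fold in males (log2 difference -2.07 ± 0.14, adjusted p = 0.000896) and rose 1.87-fold in females (0.90 ± 0.14, adjusted p = 0.0228). The interaction, which tests whether the knockout effect differs between the sexes, was -2.97 ± 0.20 (adjusted p = 0.00948). A second, dimmer probe, tested as are all second probes in a fit of the 33580 kept probes and adjusted over them, read 3.75 and 4.13 in wild-type males and 1.64 and 1.66 in labelled-knockout males. In females it read -0.01 and 0.26 in the wild type and 0.94 and 1.1 in the labelled knockout. Its differences were -2.29 in males, 0.90 in females and -3.18 for the interaction, each past the threshold (adjusted p = 0.0012, 0.0375 and 0.0162). The female rise of the brighter probe kept its direction but lost its call when any 1 labelled-knockout array was left out (adjusted p 0.0617 to 0.0971).

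Cyp39a1 (gene 56050, chromosome 17), the hydroxylase of 24-hydroxycholesterol, had the largest fall of the 10 in females. It read 2.30 and 2.21 in wild-type males against 0.85 and 0.86 in labelled-knockout males, and 4.24 and 3.68 in wild-type females against 1.08 and 1.43 in labelled-knockout females. The 4 groups did not overlap, with wild-type females highest and labelled-knockout males lowest. The fall was 2.63-fold in males (log2 difference -1.40 ± 0.21, adjusted p = 0.0136) and 6.51-fold in females (-2.70 ± 0.21, adjusted p = 0.00223). The interaction of 1.31 ± 0.30 did not pass the threshold (adjusted p = 0.316), with a 95% interval of 0.58 to 2.03 before adjustment. The female call was kept in all 16 alternatives, while the male one was lost when any 1 male array was left out (adjusted p 0.0582 to 0.0747).

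Akr1d1 (gene 208665, chromosome 6), the steroid 5-beta-reductase, read 0.95 and 0.95 in wild-type males and 1.91 and 1.84 in labelled-knockout males. It read 1.90 and 1.0 in wild-type females and 1.80 and 2.10 in labelled-knockout females. The male groups did not overlap, and the wild-type females spanned nearly the whole range. The differences were 0.92 ± 0.28 in males (adjusted p = 0.0991) and 0.50 ± 0.28 in females (adjusted p = 0.328), neither past the threshold. A second probe gave 0.72 and 0.26 (adjusted p = 0.131 and 0.565). With another background correction (normexp) the difference in males was 0.82 and passed (adjusted p = 0.0489). The male difference passed in a fit of the 4 male arrays alone (adjusted p = 0.0154) and without either wild-type female array (0.0193 and 0.0194), and in none of the other 6 fits without 1 array (adjusted p up to 0.29). The female difference was 0.95 without the first wild-type female array (adjusted p = 0.041) and 0.054 without the second (adjusted p = 0.88).

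Amacr (gene 17117, chromosome 15), the racemase that prepares the side chain for peroxisomal shortening, read 6.45 and 6.36 in wild-type males and 5.81 and 5.70 in labelled-knockout males. It read 5.98 and 5.88 in wild-type females and 5.70 and 5.64 in labelled-knockout females. Wild-type males were the highest pair, and each labelled-knockout pair was below the wild type of its sex. It fell 1.57-fold in males (log2 difference -0.65 ± 0.10, adjusted p = 0.015). The female difference of -0.26 ± 0.10 did not pass (adjusted p = 0.182), and neither did the interaction of -0.39 ± 0.14 (adjusted p = 0.544). No fit that left out 1 male array kept the male call (adjusted p 0.056 to 0.0982).

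Slc27a5 (gene 26459, chromosome 7), which activates bile acids with coenzyme A, had the smallest range of the 10 over the arrays. It read 9.19 and 9.0 in wild-type males, 9.02 and 9.02 in labelled-knockout males, 9.37 and 9.03 in wild-type females, and 8.90 and 8.84 in labelled-knockout females. The males overlapped, and both labelled-knockout females were below both wild-type ones. The differences were -0.07 in males (interval -0.42 to 0.27, adjusted p = 0.788) and -0.32 in females (interval -0.67 to 0.02, adjusted p = 0.224).

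Baat (gene 12012, chromosome 4), which joins bile acids to glycine or taurine, read 2.66 and 2.30 in wild-type males and 1.86 and 1.93 in labelled-knockout males. It read 2.50 and 1.93 in wild-type females and 2.04 and 1.90 in labelled-knockout females. Both wild-type male arrays were above both labelled-knockout ones, while the female groups overlapped. The differences of -0.59 ± 0.22 in males and -0.25 ± 0.22 in females did not pass (adjusted p = 0.148 and 0.522). A second probe gave -0.84 and -0.16 (adjusted p = 0.0825 and 0.713).

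Fgfr4 (gene 14186, chromosome 13), the FGF15 receptor, read 3.56 and 3.56 in wild-type males against 2.76 and 2.74 in labelled-knockout males. It read 3.63 and 3.99 in wild-type females against 3.22 and 3.01 in labelled-knockout females. Every wild-type array was above every array labelled knockout. It fell 1.75-fold in males (log2 difference -0.81 ± 0.15, adjusted p = 0.0251), and the female difference of -0.70 ± 0.15 was just outside the threshold (adjusted p = 0.0538). A second probe read 3.53 and 3.54 in wild-type males against 2.77 and 2.64 in labelled-knockout males, and 3.66 and 3.57 in wild-type females against 3.04 and 2.92 in labelled-knockout females. Its differences of -0.83 in males and -0.64 in females both passed (adjusted p = 0.0075 and 0.0255). Of the 8 fits without 1 array, 1 passed for the brighter probe in females, that without the first wild-type array (-0.88, adjusted p = 0.0342); without the second it was -0.51, and adjusted p over the 8 reached 0.18. The interaction of the brighter probe was -0.11 ± 0.21 (adjusted p = 0.908), and its male call did not survive the loss of any 1 male array (adjusted p 0.0871 to 0.121).

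**Figure D2:**
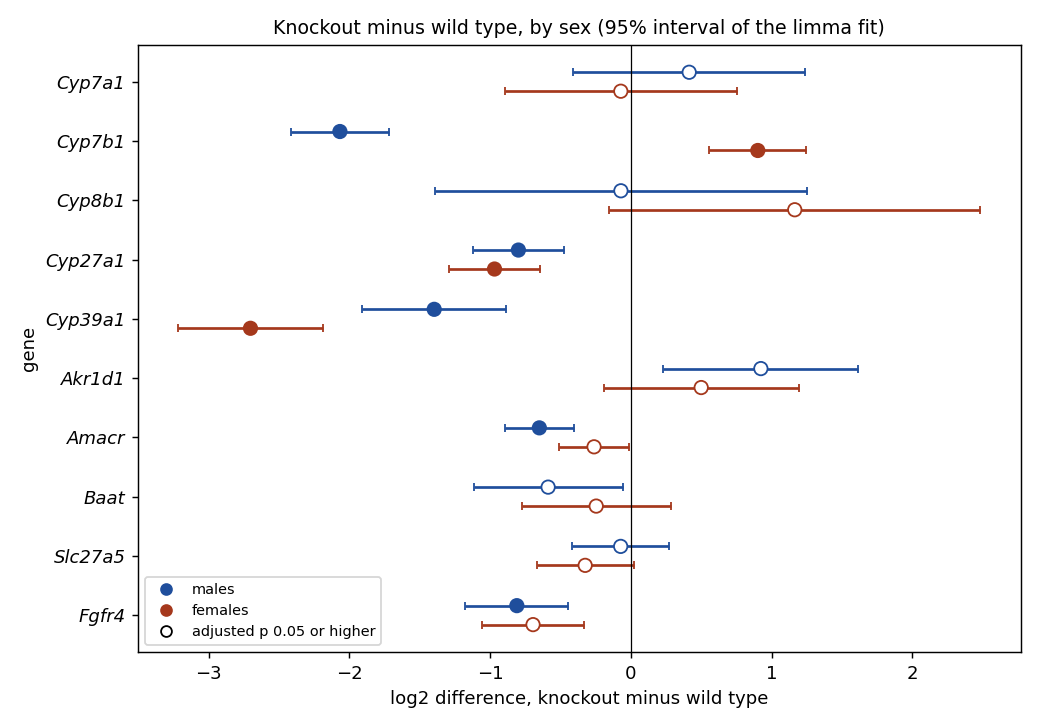
The log2 difference of labelled knockout minus wild type is plotted for each of the 10 genes in males and in females, with the 95% interval of the limma fit; filled points have an adjusted p under 0.05. The Cyp7b1 points lie on opposite sides of 0, at -2.07 in males and 0.90 in females, and both points of Cyp27a1, Cyp39a1 and Fgfr4 lie below 0.

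The second question was which of these genes differ between the sexes, first in wild-type liver and then in liver labelled knockout. In the wild type, 1 of the 10, Cyp7b1, was higher in males and 1, Cyp39a1, was higher in females, where 0.975% of all genes tested passed, 0.614% higher in males and 0.362% higher in females. Cyp7b1 was 13-fold higher in males (log2 difference 3.70 ± 0.14, adjusted p = 0.000478), and its second probe gave 3.81 (adjusted p = 0.0007). Cyp39a1 was 3.27-fold higher in females (male minus female -1.71 ± 0.21, adjusted p = 0.0316). The Cyp7b1 call was kept in each alternative; the Cyp39a1 call was lost in 9 of 16, with adjusted p up to 0.155, and among fits without 1 array it was kept only without either wild-type female array. Cyp8b1 was 1.72 ± 0.54 higher in wild-type males without passing (adjusted p = 0.195); it was 2.55 higher without the first wild-type female array (adjusted p = 0.049) and 0.89 higher without the second, and no other fit without 1 array passed (adjusted p up to 0.463). Amacr was 0.48 ± 0.10 higher (adjusted p = 0.0973), and with the normexp background correction it was 0.44 higher and passed (adjusted p = 0.0396). The other 6 differed by at most 0.50 in size.

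In the livers labelled knockout, none of the 10 differed between the sexes past the threshold by limma, with 2 at an unadjusted p under 0.05 and 0 in each fit without 1 array; 0.0753% of all genes tested passed, 0.0565% higher in males and 0.0188% higher in females. The difference in Cyp7b1 was 0.73 ± 0.14 there, with both male arrays above both female ones (interval 0.38 to 1.08, adjusted p = 0.524). The difference in Cyp39a1 was -0.40 ± 0.21 (interval -0.91 to 0.11, adjusted p = 0.879). Of the 10 interactions 1 passed, that of Cyp7b1, where 0.188% of all genes passed, 0.0979% below 0 as here and 0.0904% above. The comparisons in the 2 sexes and the 2 genotypes share arrays, so their values are set side by side and not correlated.

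**Figure D3:**
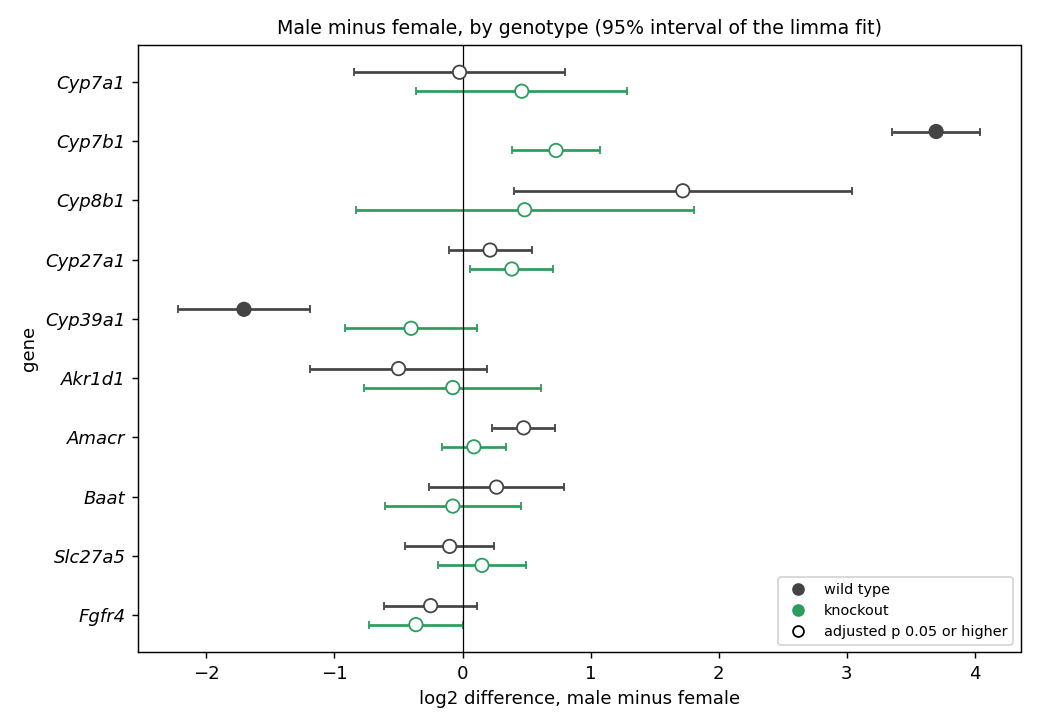
The log2 difference of male minus female is plotted for each of the 10 genes in wild-type liver and in liver labelled knockout, with the 95% interval of the limma fit; filled points have an adjusted p under 0.05. Cyp7b1 lies at 3.70 in the wild type and 0.73 in the labelled knockout, and Cyp39a1 at -1.71 and -0.40.

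For the 3 genes with the smallest adjusted p, the other genes with the most similar pattern were taken by the root mean square difference of the centred log2 values over the 8 arrays. For Cyp7b1, whose own values had a root mean square of 1.37, these were 4930432K21Rik at 0.382, Alas2 at 0.491 and Wfdc12 at 0.505. Alas2, the erythroid form of the first enzyme of heme synthesis, gave -1.49 in males and 1.59 in females between labelled knockout and wild type. Genes picked by likeness on these same arrays share the member's directions by the choice, so these differences are no separate support. For Cyp39a1, with a root mean square of 1.21, they were Adgrg2 at 0.389, Rcan2 at 0.392 and Tmem163 at 0.399. For Amacr, at 0.289, they were Ccdc25 at 0.0494, the peroxisomal sterol carrier gene Scp2 at 0.0544, and AA536875 at 0.0546.

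Of 16 other genes of bile acid synthesis, all measured, 3 fell and 1 rose in each sex in the livers labelled knockout. Over all genes, 4.93% fell and 5.77% rose in males, and 2.45% fell and 3.48% rose in females. The medians of the 16 were -0.34 in males and -0.25 in females, beside -0.04 and 0.00 for all genes. The acyl-CoA synthetase gene Slc27a2 fell in both, by 0.79 in males and 0.65 in females on the log2 scale (adjusted p = 0.0102 and 0.0263). The sterol-binding gene Stard5 rose in both, by 0.88 and 0.94 (adjusted p = 0.0147 and 0.018). The peroxisomal genes Scp2 (-0.65) and Acox2 (-0.70) passed in males alone. Star (-1.26, and from -1.50 to -0.31 over the 16 alternatives), which carries cholesterol to mitochondria, and the thioesterase Acot8 (-0.56) passed in females alone. Wild-type means were above labelled-knockout means in the other sex too. They were 8.58 against 8.31 for Scp2 and 6.26 against 5.85 for Acox2 in females. In males they were -2.88 against -3.28 for Star and 4.11 against 3.67 for Acot8. Hsd3b7, the ring dehydrogenase shared by both routes, gave -0.21 and -0.26 (adjusted p = 0.357 and 0.275).

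Of 23 regulators listed, 21 were measured (Fgf15 and Malrd1 did not pass the filter on dim probes), and 4 fell and 0 rose in each sex, with medians of -0.07 in males and -0.18 in females. Over all genes, 4.93% fell in males and 2.45% in females, with medians of -0.04 and 0.00, so the male median was close to that of all genes. Nr1h4, the bile acid receptor FXR, read 5.01 and 5.15 in wild-type males against 4.29 and 4.38 in labelled-knockout males. In females it read 5.32 and 5.07 against 4.14 and 4.09. Every wild-type array was above every array labelled knockout. Nr1h4 fell by 0.74 in males and 1.07 in females on the log2 scale (adjusted p = 0.0182 and 0.00909). Cebpb, a transcription factor of the liver, fell by 1.12 and 1.52. The xenobiotic receptor gene Nr1i2 (-0.74) and Mafg (-0.51) passed in males alone. The constitutive androstane receptor gene Nr1i3 (-1.03) and Foxo1 (-0.57) passed in females alone. Wild-type means were also above labelled-knockout means in females for Nr1i2 (2.77 against 2.10) and Mafg (4.55 against 4.36). In males this held for Foxo1 (4.06 against 3.83) but not for Nr1i3 (2.57 against 2.71). Nr0b2, the repressor SHP that FXR induces, gave -0.35 and -0.74 (adjusted p = 0.654 and 0.343), and Klb, the co-receptor of FGFR4, gave 0.22 and -0.14 (adjusted p = 0.559 and 0.728).

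Of 15 bile acid transporters, 14 were measured (Slc51a did not pass the filter), and 2 fell and 0 rose in each sex. Over all genes, 4.93% fell in males and 2.45% in females. The medians of the 14 were -0.27 in males and -0.23 in females, beside -0.04 and 0.00 for all genes. Abcc3, an exporter of the sinusoidal membrane, read 6.11 and 5.88 in wild-type males against 4.11 and 3.12 in labelled-knockout males, and 6.30 and 6.28 in wild-type females against 3.71 and 3.47 in labelled-knockout females. It fell by 2.38 and 2.70 on the log2 scale (adjusted p = 0.00899 and 0.00949). Slco1b2, an uptake transporter, fell by 1.22 and 1.24 (adjusted p = 0.00664 and 0.01). The sodium-coupled uptake transporter Slc10a1 gave 0.05 in both sexes and the canalicular export pump Abcb11 -0.29 and -0.32, none past the threshold. In the wild type, 1 of the 14 transporters passed between the sexes, where 0.362% of all genes were higher in females. This was Slco1a4, which was higher in females (male minus female -1.61, adjusted p = 0.0486). The uptake transporter Slco1a1 had the largest differences of the list without passing. It read 3.53 and 3.57 in wild-type males, -1.52 and -2.22 in labelled-knockout males, -5.29 and 1.28 in wild-type females, and -3.94 and -2.67 in labelled-knockout females. Wild-type males were above all other arrays, and the wild-type females lay far apart, with 1 of the 2 well above background. The differences were -5.42 ± 1.93 between the male groups (adjusted p = 0.138) and 5.56 ± 1.93 between the wild-type sexes (adjusted p = 0.223). None of the genes in these 3 lists passed for the interaction by limma, with 2 of each list at an unadjusted p under 0.05. Among all 26551 tested, 0.188% passed for the interaction and 2222 had an unadjusted p under 0.05. Of the calls named in these lists, those of Abcc3 and Slco1b2 in males and of Cebpb in females were kept without any single array, and each of the others was lost without at least 1 array (adjusted p up to 0.188, for Mafg).

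**Figure D4:**
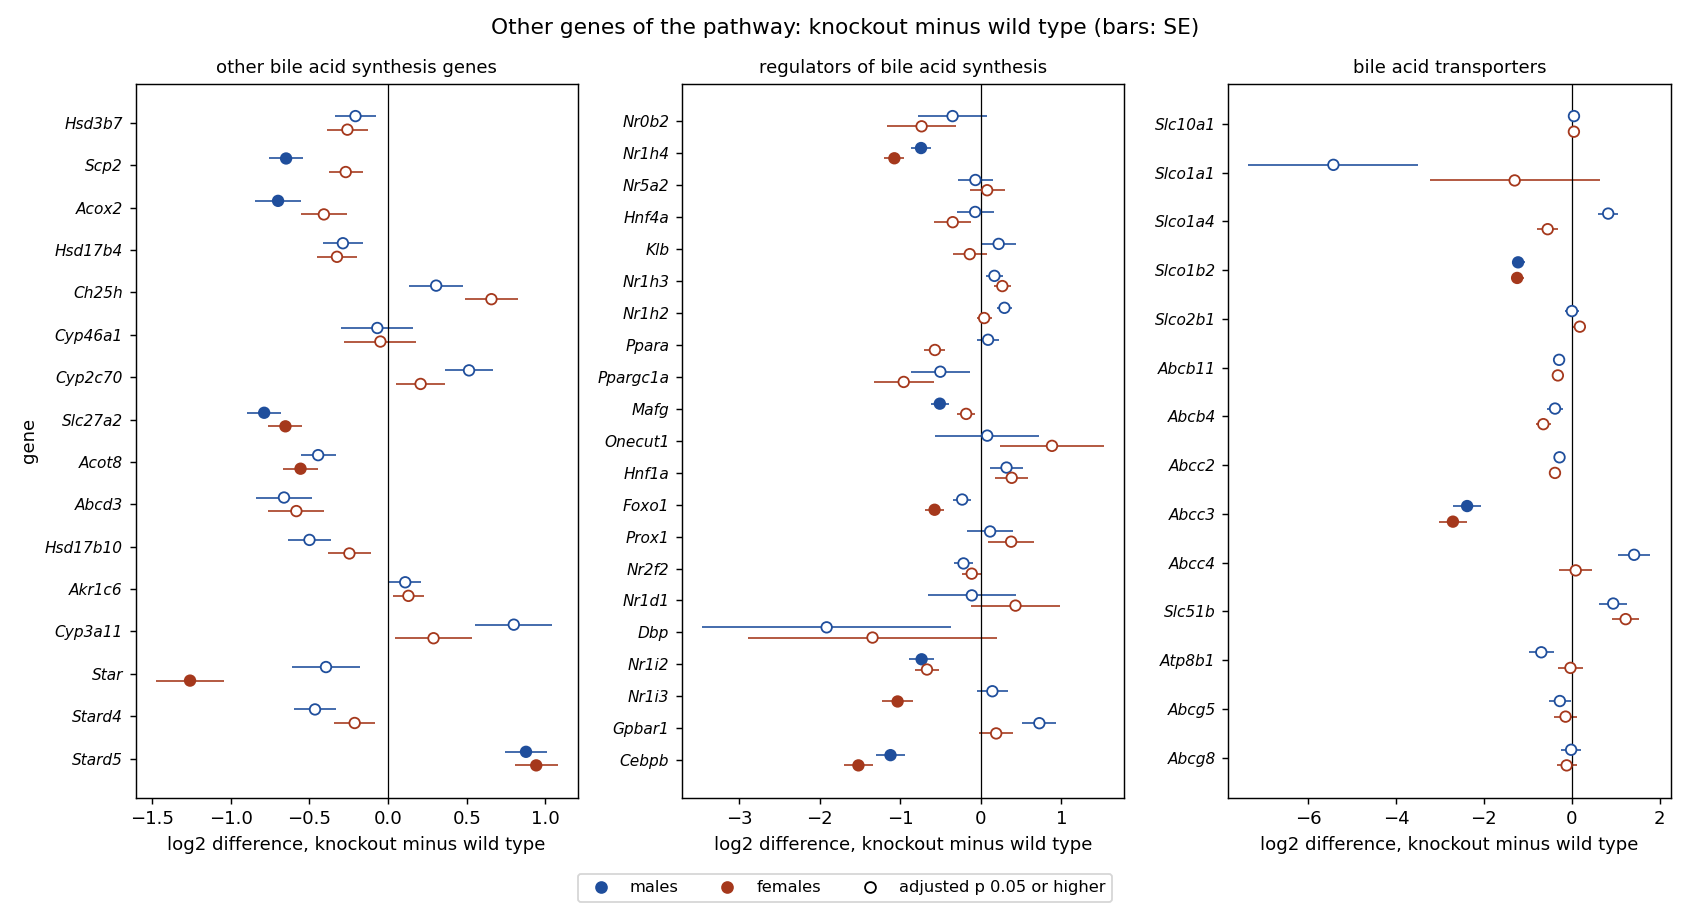
The log2 difference of labelled knockout minus wild type is plotted in males and in females for the measured genes of 3 lists, other bile acid synthesis genes, regulators and transporters; bars are SE, filled points have an adjusted p under 0.05 and each panel has its own scale. Slc27a2 and Nr1h4 lie below 0 in both sexes, Stard5 above 0 in both, and Abcc3 at -2.38 and -2.70.

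Some markers of other liver cells differed by genotype beside these results, and their part in the results was not tested. Over all genes, 5.77% rose and 4.93% fell in males, and 3.48% rose and 2.45% fell in females. Of 8 measured B and plasma cell markers 3 rose in males and 2 in females, and their summed level, in multiples of the 75th percentile, went from between 1.45 and 1.62 to between 2.83 and 2.96 in males and from between 1.76 and 1.94 to between 2.93 and 2.95 in females. Of 10 endothelial markers 3 rose in males and 1 in females (summed levels 77.1 to 80.5 against 112 to 119 in males, 94.2 to 101 against 110 to 113 in females). Of 10 stellate cell markers 3 rose in males and 1 fell in females (75.4 to 88.0 against 99.4 to 108 in males, 75.6 to 115 against 104 to 122 in females). Of 7 measured cholangiocyte markers 1 rose in each sex (5.08 to 5.89 against 6.51 to 7.31 in males, 6.91 to 9.01 against 7.01 to 8.0 in females). None of 10 macrophage or 8 measured T and NK cell markers passed by limma, with 0 to 1 of each at an unadjusted p under 0.05. Their summed levels were 120 to 127 against 124 to 159 and 34.4 to 38.1 against 25.3 to 35.2 in males, and 138 to 139 against 135 to 155 and 19.3 to 32.9 against 18.6 to 20.7 in females. A sum gives the brightest markers most weight. Of the 8 T and NK cell markers, 6 were above 0 and 2 below in males, with a median log2 difference of 0.36. In females 4 were above 0 and 4 below, with a median of -0.04. Of 12 hepatocyte markers 1 fell in each sex, with summed levels of 7861 to 8002 against 7589 to 7824 in males and 7199 to 7470 against 6863 to 7770 in females. By the filter on dim probes, no measured marker could be below background on all arrays. Ncr1, Trac, Blk and Slc5a1 did not pass this filter.

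Cyp7a1 is a gene with a daily rhythm, and the clock-output gene Dbp differed within groups: 3.75 and 5.57 in wild-type males, 4.15 and 1.33 in labelled-knockout males, 4.61 and 5.24 in wild-type females, and 5.66 and 1.5 in labelled-knockout females. It was lowest on the second array of each labelled-knockout group. On those 2 arrays Cyp7a1 read 3.05 and 2.19, and Cyp7b1 read 4.14 and 3.49, beside 4.16 and 3.35 on the first arrays of the groups. Of 16 measured clock genes 2 fell in each sex, where 4.93% of all genes fell in males and 2.45% in females. Hlf, a relative of Dbp, fell by 1.0 in both (adjusted p = 0.00534 and 0.00887). Ciart was not well above background on the labelled-knockout arrays and was at least 1.42-fold lower in males and at least 5.49-fold lower in females (adjusted p = 0.0291 and 0.00816). With no filter on dim probes another probe stood for Ciart. Its difference was 0.52 in males (adjusted p = 0.572) and -0.42 in females (adjusted p = 0.679). The labels do not give the time of day at which livers were taken, and its part in the results was not tested. Of 23 genes of cholesterol synthesis and uptake, the source of the substrate, none passed in either sex by limma. In each sex 4 had an unadjusted p under 0.05, and the medians were 0.06 in males and -0.22 in females. Among all 26551 tested, 10.7% passed in males and 5.93% in females. An unadjusted p under 0.05 was found for 7228 of them in males and 6612 in females, and their medians were -0.04 and 0.00.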

How the data were processed

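Transcripts were measured in 8 samples of whole mouse liver on 1-colour Agilent arrays. The intensity values deposited by the authors are processed signals, from which Feature Extraction 11.5.1.1 had removed background and a spatial trend, per the file headers; version 9.1.3.1 stands in the submitters' processing notes. The raw spot and background intensity values, also deposited, entered 1 alternative. The value table deposited by the authors holds log2 values; it matched the processed signals on the log2 scale, less a constant of 6.99 to 7.30 per array, within 0.01, so it was not centred per gene.

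Here control spots and 55 to 139 spots per array marked as uneven or outlying were left out; none was saturated. Spots of a probe were averaged, log2 was taken and each array's 75th percentile subtracted. Of 56605 probes, 33580 were kept because 1 group or more had both its arrays well above background. The brightest kept probe stood for a gene, giving 26551 genes and unnamed transcripts. Of all probes 32994 were named through RefSeq accessions (22911 symbols, GRCm38.p6). The array's grid is annotated on mm9, so probes have no coordinates here.

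With limma 3.58.1 (R 4.3.3) a mean was fitted to each of the 4 groups over the 8 arrays (4 residual and 2.08 prior degrees of freedom), with Benjamini-Hochberg adjustment over all 26551 at 0.05, in 5 comparisons; second probes were adjusted over the 33580 kept probes, and each alternative over the features it tested. The code of the fit was run on simulated normal values with the fitted spread. This cannot show how the test behaves on 2 real arrays a group. The median SE on the log2 scale was 0.162 for pairs of groups and 0.229 for the interaction; 2 arrays a group limit the precision. An exact permutation test of 2 against 2 cannot go below 0.333, so none was used. "At least" marks a lower bound where no array of the lower group was well above background: the brighter group's mean log2 level minus the mean, over the dimmer arrays, of the higher of the probe's level and the lowest signal of any probe well above background.

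All 10 genes are named, and of each other list up to 4 past the threshold with the smallest adjusted p in a comparison. Some outside that rule were chosen after their values were seen. They are Hsd3b7, Nr0b2, Klb, Slc10a1, Abcb11 and Dbp, for their role, and Slco1a1, for the size of its differences. The genes and lists were chosen with earlier results of these data known. Alternatives were another background correction, normalization, filter, probe rule, the deposited value table, fits of 2 groups, a replicate block and leaving out each array.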

Additional observations from a re-analysis of the deposited data

Results flagged for a closer look

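Cyp7b1 stood out because the labelled-knockout effect differed between the sexes by a test of the difference itself: it was -2.07 in males and 0.90 in females on the log2 scale, a difference of -2.97 ± 0.20 (limma adjusted p = 0.00948). Both labelled-knockout arrays were below both wild-type arrays in males and above both in females. Leaving out any single array kept the call, with values from -3.13 to -2.81, and a second probe gave -3.18.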

How the results depend on the processing

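Of the 50 gene-by-comparison results of the 10 genes, 11 passed the threshold, and 4 of these passed in each alternative: Cyp7b1 in males, between wild-type sexes and for the interaction, and Cyp39a1 in females. None of the 11 turned direction. Over all genes, 2841 passed in males, 1574 in females, 259 between wild-type sexes, 20 between labelled-knockout sexes and 50 for the interaction. With no filter on dim probes, so that more features were tested, the genes past the threshold numbered 1225 in males, 522 in females, 99 between wild-type sexes and 16 for the interaction, and of the 10 genes 2, 1 and 1 passed in the first 3 of these comparisons. Fits of 2 groups alone, with fewer arrays, gave 394 genes in females, 51 between wild-type sexes and 11 between labelled-knockout sexes, and of the 10 genes 1 in females and 1 between wild-type sexes. The normexp background correction gave 2651, 615 and 9 genes in those comparisons, and the filter that asks for all arrays gave 1 gene between labelled-knockout sexes; the cause was not tested. With the replicate number as a block, 1 of the 10 genes passed between wild-type sexes, where Cyp39a1 lost its call, and 25 genes passed for the interaction; no other count of the 10 genes changed under the block. The labels tie same-numbered arrays of different groups by a number alone. Deviations of these arrays from the group means correlated at -0.0017 to 0.102 across genes. A correlation over all genes cannot show whether a few genes share a factor. Dbp was lower on the second array of both labelled-knockout groups and higher on that of both wild-type groups. Quantile normalization, the mean of a gene's probes and the deposited value table kept all of these counts within 1.5 times.

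Leaving out single arrays gave 1077 to 2911 genes in males (lowest without the second labelled-knockout male), 562 to 1690 in females (lowest without the first labelled-knockout female), 86 to 1059 between wild-type sexes, 11 to 217 between labelled-knockout sexes and 80 to 530 for the interaction. Of the 10 genes it left 1 to 6 in males, 1 to 6 in females, 1 to 3 between wild-type sexes, 0 between labelled-knockout sexes and 1 for the interaction. Differences that turned direction were all uncalled and at most 0.42 in size for the 10 genes. Their ranges over single arrays left out were -0.41 to 0.27 for Cyp8b1 and -0.17 to 0.020 for Slc27a5 in males, -0.40 to 0.26 for Cyp7a1 and -0.53 to 0.041 for Baat in females, and -0.36 to 0.32 for Cyp7a1, -0.021 to 0.55 for Baat and -0.27 to 0.069 for Slc27a5 between wild-type sexes. They were -0.22 to 0.071 for Akr1d1 between labelled-knockout sexes, and -0.022 to 0.87 for Akr1d1 and -0.30 to 0.068 for Fgfr4 for the interaction. Ciart in males ran from -3.21 to 0.87 over single arrays left out. With no filter, where another probe stood for it, it gave 0.52. The filter and the choice of the brightest probe were rerun without each array, so the probe may differ there too. With 2 arrays a group, a lone array was assumed to vary like the other groups.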
